A study of Mus musculus with 2 samples.

Results

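EGF family ligands and their ERBB receptors were examined in 2 libraries of mouse lung cancer cells, labelled KPR- (*Runx3* off) and KPRrestored (*Runx3* restored). The 10 genes were 6 ligands (*Areg*, *Ereg*, *Hbegf*, *Tgfa*, *Btc* and *Epgn*), 3 receptors (*Egfr*, *Erbb2* and *Erbb3*) and the feedback inhibitor *Errfi1*, out of 23183 genes with a deposited value. They were chosen by gene symbol, with the FPKM of both libraries already known, so their levels and differences are a description and carry no test. Of the 10 genes, 4 were higher by 0.5 or more on the log2 scale in the library labelled KPRrestored, namely *Areg*, *Ereg*, *Btc* and *Errfi1*, and 0 were lower by as much. Over all 23183 genes, 13.8% were higher and 12.9% were lower by 0.5 or more. All 3 receptors stayed within 0.5 of their level in the KPR- library.

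The ligands of the EGF family are made as membrane-anchored precursors, and proteases of the ADAM family cut them loose. A free ligand brings ERBB receptors together in pairs, and the paired receptors switch on the RAS-ERK and PI3K pathways inside the cell. ERK signalling in turn induces genes that dampen the receptor, *Errfi1* among them. In lung epithelium this system drives growth and repair, and in *K-Ras*-activated tumor cells ligand genes can be expressed as targets of ERK signalling.

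The KPR- cells are immortalized cells grown from lung cancers of mice that carried *K-Ras* LSL-G12D/+ and *p53* flox/flox, together with *Runx3* flox/FSF, a Tomato reporter and Flp ERT2. The mice were 6 to 8 weeks old when they inhaled an adenovirus carrying Cre recombinase under the *CMV* promoter, and lungs were taken 4 weeks later. Cre turns on oncogenic *K-Ras* and removes the floxed *p53* and *Runx3* alleles, and the other *Runx3* allele is held off by a *Frt-Stop-Frt* cassette. 4-hydroxytamoxifen (4-OHT) activates the Flp recombinase, which cuts out the cassette and gives KPRrestored cells, so both groups share the *K-Ras* activation and the *p53* deletion. The labels give *RUNX3* -/- and 0 h for the KPR- library, *RUNX3* -/+ and 16 h for the KPRrestored library, and serum with 1 μM 4-OHT for both. The 4-OHT label of the KPR- library is at odds with the methods, in which 4-OHT is what makes KPRrestored cells from KPR- cells, and which of them holds is not settled here. Each condition is 1 library, so the spread between cultures is unknown. Restoration and time in culture, as well as 4-OHT if only KPRrestored received it, cannot be told apart.

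From the steps that whole fragments leave in low FPKM values, the depth on the scale of the deposited FPKM was estimated. It was 21.9 M fragments in the KPR- library and 22.4 M in the other. *Runx3*, the restored gene, was at 0.348 FPKM in KPR- and 0.349 FPKM in KPRrestored. The log2 difference was 0.01 (95% counting interval -0.78 to 0.82, from about 28 and 29 fragments). A higher RNA level of the restored gene was therefore not seen in the library labelled KPRrestored. The interval is wide, however, and does not exclude a difference past 0.5 in either direction. By immunoblotting, the paper reports the restored protein in treated cells, together with Arf, which the untreated cells lacked. Protein and RNA per gene are different measures, and whether these libraries match their labels was not tested. The deposited value is per gene and does not show which allele or exons were read. In what follows, KPR- and KPRrestored stand for the libraries so labelled, and every direction rests on those labels. The epithelial genes *Epcam*, *Krt8*, *Krt18* and *Cdh1* were abundant in both libraries (*Krt8* at 1711 and 1631 FPKM). *Sftpc* and *Sftpb* were listed at 0 in both and *Nkx2-1* was at 0.0444 and 0.0216 FPKM, so these lung markers were absent or nearly so. Of 6 leukocyte markers, 3 were listed at 0 in both libraries, and the sum over the list was 2.72 FPKM in KPR- and 1.20 FPKM in KPRrestored. Nearly all of this sum was *Csf1r* (2.68 and 1.19 FPKM, log2 difference -1.17, counting interval -1.54 to -0.83). The 3 endothelial markers summed to 1.16 and 2.22 FPKM, mostly *Kdr* (1.1 and 2.05 FPKM, log2 difference 0.89, counting interval 0.60 to 1.21). *Cdh5* was listed at 0 in KPR- and had 0.141 FPKM, about 12 fragments, in KPRrestored. Of 7 mesenchymal markers, 4 were lower by 0.5 or more, but only *Col1a1* (12.2 and 4.21 FPKM, log2 difference -1.53) among them had a mean FPKM of 1 or more. The other 3 rested on 9 fragments or fewer, with counting intervals that include 0, and the sum, mostly *Vim*, was 1790 and 1469 FPKM. The part of these markers in the differences described here was not tested. A lower level in such bulk RNA does not separate fewer expressing cells from less RNA per cell.

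The ligand genes share a coding stretch that makes the receptor-binding EGF-like fold, which is held together by 6 cysteines. In the reference transcripts of 5 ligands this stretch is 36 codons long, with 7, 4, 10, 1 and 8 codons between successive cysteine codons, and it runs from exon 3 into exon 4 in each of them. It is shown to make plain what *Areg*, *Ereg*, *Btc*, *Epgn* and *Tgfa* have in common. Their levels differed, and their log2 differences between the libraries ran from -0.27 (*Tgfa*) to 1.87 (*Areg*). That of *Epgn* rested on about 5 fragments in each library. The letters are coding bases 5′ to 3′ (GENCODE M21 transcripts on GRCm38), with the 6 cysteine codons in capitals.
Areg: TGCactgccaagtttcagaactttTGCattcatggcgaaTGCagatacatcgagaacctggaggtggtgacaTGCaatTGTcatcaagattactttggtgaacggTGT
Ereg: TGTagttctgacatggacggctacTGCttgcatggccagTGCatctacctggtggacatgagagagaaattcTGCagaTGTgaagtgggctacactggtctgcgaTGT
Btc: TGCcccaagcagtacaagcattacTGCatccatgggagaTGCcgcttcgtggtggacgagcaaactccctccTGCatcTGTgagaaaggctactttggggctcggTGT
Epgn: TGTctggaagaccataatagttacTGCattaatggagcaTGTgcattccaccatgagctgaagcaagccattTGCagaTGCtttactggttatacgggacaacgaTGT
Tgfa: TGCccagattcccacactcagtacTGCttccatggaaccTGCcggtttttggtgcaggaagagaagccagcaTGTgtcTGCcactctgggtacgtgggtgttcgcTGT

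On GRCm38 the stretch of *Areg* lies at chr5:91143614-91144364 (plus strand, intron included) and that of *Ereg* at chr5:91088496-91089111 (plus strand). That of *Btc* lies at chr5:91362421-91366197 (minus strand), that of *Epgn* at chr5:91031152-91032237 (plus strand) and that of *Tgfa* at chr6:86263200-86269960 (plus strand). Between pairs of these 5 ligands, the share of the 36 codons that encode the same residue ran from 33.3% (*Areg* with *Ereg* and with *Epgn*) to 52.8% (*Btc* with *Tgfa*). These shares include the 6 cysteine codons, which match in every pair because the stretch was found by them. *Areg* and *Btc*, which were both higher in KPRrestored, had the same residue at 38.9% of the codons, as did *Areg* and *Tgfa*.

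*Areg* encodes amphiregulin, a ligand of Egfr. It lies at chr5:91139599-91148432 (plus strand) and has 1 annotated transcript of 1215 bases. Its level was 28.7 FPKM in KPR- and 105 FPKM in KPRrestored, from about 630 and 2354 fragments. This was the largest difference of the 10 genes, 1.87 on the log2 scale with a 95% counting interval of 1.74 to 2.0, or 3.65-fold. Its rank by this difference was 71st from the top among 11231 expressed genes, those whose mean FPKM was 1 or more.

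*Ereg* encodes epiregulin, which binds Egfr and Erbb4. It lies at chr5:91074622-91093646 (plus strand). Its level was 6.44 FPKM in KPR- and 16.3 FPKM in KPRrestored, from about 552 and 1431 fragments. The log2 difference was 1.34 (counting interval 1.20 to 1.49), which placed it 163rd from the top. *Btc* encodes betacellulin, another ligand of Egfr and Erbb4, and lies at chr5:91357261-91402994 (minus strand). *Btc* was at 2.98 FPKM in KPR- and 6.53 FPKM in KPRrestored, from about 174 and 389 fragments. The log2 difference was 1.13 (counting interval 0.87 to 1.39), 246th from the top. These 3 ligands were therefore at 2.19-fold to 3.65-fold of their KPR- level. The counting intervals of their 2 levels did not overlap, which also held for *Tgfa*, *Erbb2*, *Erbb3* and *Errfi1*. The share of all genes for which this holds was not computed, and nothing is read from it.

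*Hbegf*, which encodes heparin-binding EGF-like growth factor, lies at chr18:36504927-36515805 (minus strand) and was the most abundant of the 6 ligand transcripts in KPR-. Its FPKM was 46.9 in KPR- and 48.8 in KPRrestored, a log2 difference of 0.06 whose counting interval of -0.03 to 0.14 includes 0. *Tgfa* encodes transforming growth factor alpha, an Egfr ligand, and lies at chr6:86195223-86275719 (plus strand). Its FPKM was 22.5 in KPR- and 18.7 in KPRrestored, a log2 difference of -0.27 (counting interval -0.36 to -0.18) that is under the threshold of 0.5. *Epgn*, the gene of epigen, lies at chr5:91027464-91035215 (plus strand) and was barely detected, at 0.153 and 0.149 FPKM. About 5 fragments stood behind each value, and the counting interval of -2.15 to 2.09 does not exclude a difference of the size seen for *Areg* in either direction.

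**Figure D1:**
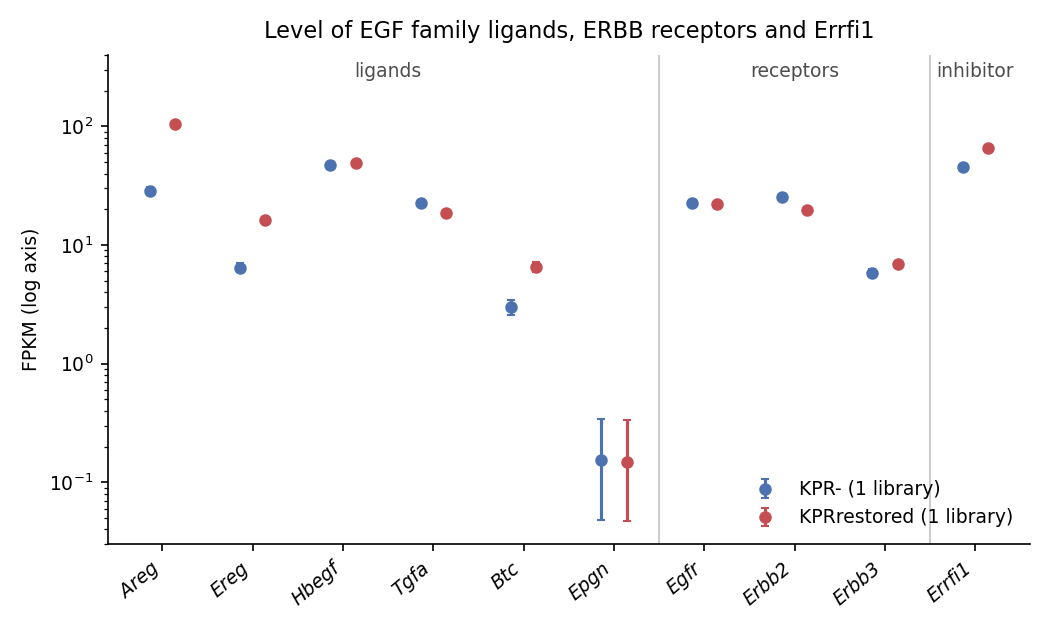
FPKM of the 10 genes (log axis) in the KPR- library and the KPRrestored library, 1 library each, with 95% Poisson intervals of the estimated fragments as bars. Areg goes from 28.7 to 105 FPKM and Hbegf stays at 46.9 and 48.8 FPKM, while Epgn lies near 0.15 FPKM in both.

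The order of the ligands changed at its head. In KPR- the order by FPKM, which is scaled to transcript length, was *Hbegf*, *Areg*, *Tgfa*, *Ereg*, *Btc* and *Epgn*. In KPRrestored *Areg* stood above *Hbegf*, and the other 4 followed in the same order. The counting intervals of neighbours in either order did not overlap, the closest pair being *Tgfa* (17.8 to 19.6 FPKM) and *Ereg* (15.5 to 17.2 FPKM) in KPRrestored. Summed over the 6 ligands, the level was 108 FPKM in KPR- and 195 FPKM in KPRrestored, a ratio of 1.81. *Areg* made up 26.7% of the ligand sum in KPR- and 53.7% in KPRrestored, whereas *Hbegf* made up 43.6% and 25%. The share of *Tgfa* was 20.9% and 9.56%. *Ereg* and *Btc* added 8.35% and 3.34% of the sum in KPRrestored, so most of the higher ligand total was *Areg*.

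*Egfr*, which binds these ligands directly, lies at chr11:16752203-16918158 (plus strand). Its FPKM was 22.6 in KPR- and 22.1 in KPRrestored, a log2 difference of -0.03 (counting interval -0.09 to 0.03). *Egfr* has 2 RefSeq-matched transcripts, of 10208 and 2943 bases, which are pooled in its value. Counted over the shorter transcript the interval was -0.14 to 0.08. *Erbb2* encodes the ligandless partner of the other receptors and lies at chr11:98412470-98437716 (plus strand). *Erbb2* was at 25.2 FPKM in KPR- and 19.8 FPKM in KPRrestored, a log2 difference of -0.35 (counting interval -0.44 to -0.27). *Mien1*, on the opposite strand, overlaps *Erbb2* and was at 40.1 and 46.9 FPKM. The library kit was a directional one, which marks strand, but whether the mapping and counting used it is not given in the sources used here. If they did not, fragments of the shared part may have gone to either gene.

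*Erbb3*, whose receptor binds neuregulins and has little kinase activity of its own, lies at chr10:128567523-128589652 (minus strand). Its FPKM was 5.81 in KPR- and 6.93 in KPRrestored, a log2 difference of 0.25 (counting interval 0.11 to 0.40). Summed over the 3 receptors, the level was 53.6 FPKM in KPR- and 48.8 FPKM in KPRrestored. *Erbb2* stood above *Egfr* in KPR- (24.3 to 26.2 against 22.0 to 23.2 FPKM) and below it in KPRrestored (18.9 to 20.6 against 21.5 to 22.8 FPKM), and *Erbb3* was the lowest of the 3 in both.

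*Errfi1*, also known as Mig-6, encodes a cytoplasmic protein that binds the kinase domain of ERBB receptors and blocks it. It lies at chr4:150853919-150868892 (plus strand). Its FPKM was 45.4 in KPR- and 65.4 in KPRrestored, from about 2811 and 4147 fragments. The log2 difference was 0.53 (counting interval 0.46 to 0.60), just past the threshold, and its rank was 1236th from the top. With both libraries scaled to the same upper quartile it was 0.49, just under the threshold.

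**Figure D2:**
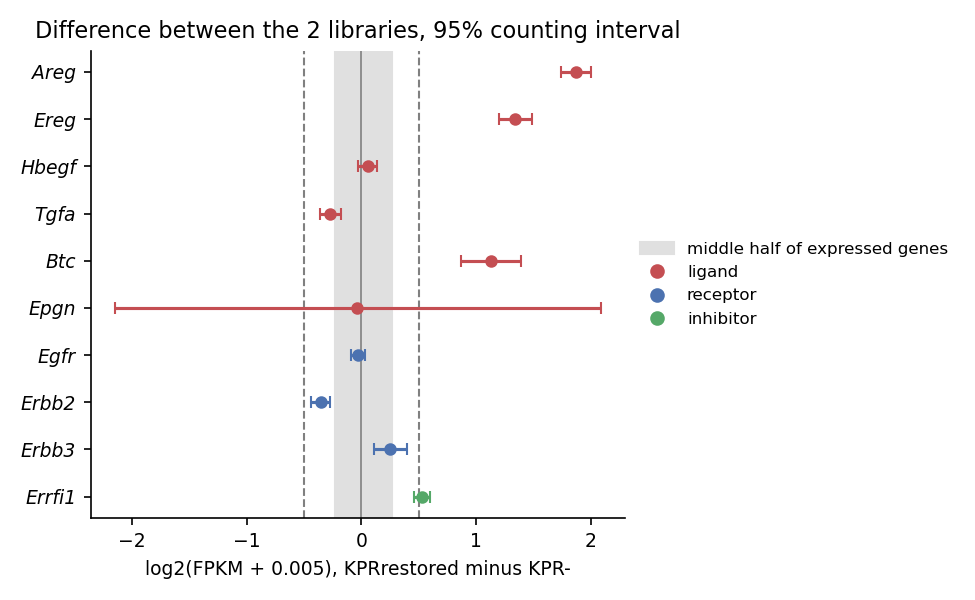
Log2 difference of the 10 genes, KPRrestored minus KPR-, with exact 95% counting intervals, colored by role, with the quartile range of the expressed genes (-0.23 to 0.27) as a grey band and dashed lines at 0.5 either way. Areg, Ereg and Btc lie well to the right of the band, Errfi1 lies on the line, and the interval of Epgn spans -2.15 to 2.09.

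To set these values against the rest of the libraries, the same threshold was applied to all genes. A level higher by 0.5 or more was found for 13.8% of the 23183 genes, and a level lower by as much for 12.9%, against 4 and 0 of the 10 genes here. Among the 11231 expressed genes, which leaves out *Epgn*, 12.1% were higher and 9.29% were lower by 0.5 or more, and 2.89% were higher by 1 or more. Of the 9 remaining genes, 4 were higher by 0.5 or more and 3 (*Areg*, *Ereg* and *Btc*) by 1 or more. Since the 10 genes were chosen with their values known, nothing is read from the excess. The median log2 difference was 0.16 over the 10 and 0.25 over the 9 genes, and that of the expressed genes was 0.01 with quartiles of -0.23 and 0.27.

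**Figure D3:**
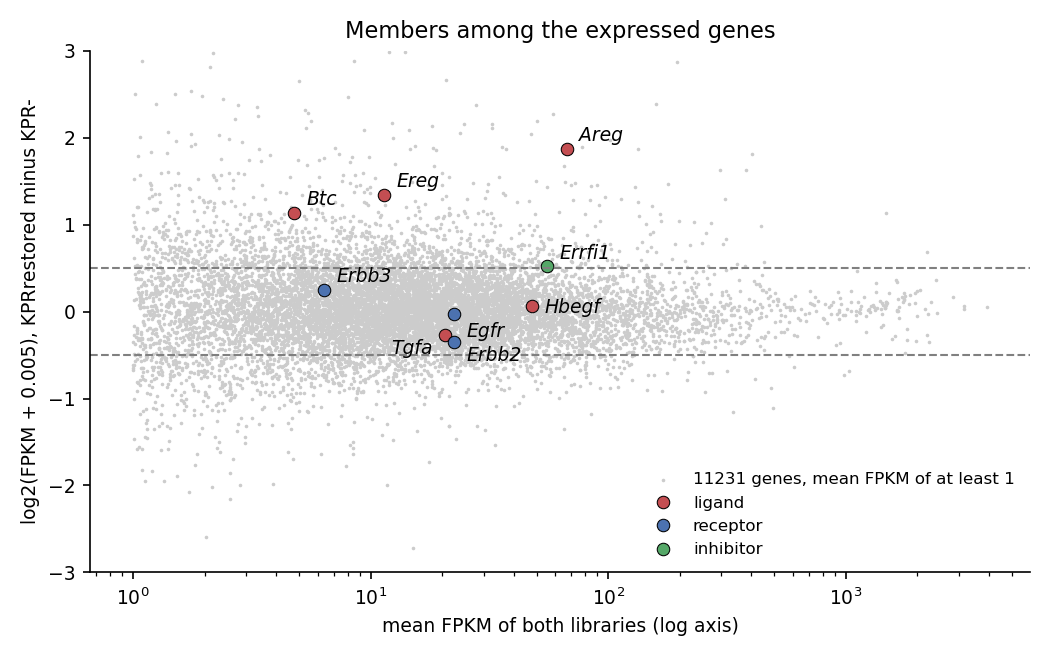
Log2 difference (KPRrestored minus KPR-) against mean FPKM (log axis) for the 11231 expressed genes (grey), with 9 of the 10 genes marked by role and Epgn left out for its low level (31 genes lie past the axis limit of 3 either way). Areg stands at a high mean level and a difference of 1.87, above the cloud of genes around it, whereas the receptors lie inside the cloud.

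The genes of *Epgn*, *Ereg*, *Areg* and *Btc* lie side by side on chromosome 5, within 376 kb (chr5:91027464-91402994). *Ereg* begins 39.4 kb after the end of *Epgn*, *Areg* begins 46.0 kb after the end of *Ereg*, and *Btc*, on the minus strand, ends 209 kb further on. Of these 4 neighbours, 3 were higher by 1 or more on the log2 scale, and *Epgn*, at the edge of the group, had about 5 fragments in each library. Over all 23183 genes, 1625 were higher by 1 or more, and 2.89% of the expressed genes were. The 4 are among the genes chosen with their values known, so nothing is read from this count. The genes around them were taken after the values of the ligands were seen, as all 5 other genes with a deposited value within 150 kb of the group. *Cxcl1* and *Cxcl2*, which encode neutrophil-attracting chemokines, went from 224 to 384 FPKM and from 6.31 to 23.1 FPKM, log2 differences of 0.78 and 1.87. *Mthfd2l*, a gene of mitochondrial folate metabolism that lies between them and *Epgn*, was at 6.53 FPKM in KPR- and 4.76 FPKM in KPRrestored, a log2 difference of -0.46. *Parm1*, on the other side, had 17.4 and 15.1 FPKM, a log2 difference of -0.21. The noncoding *Gm19619*, between *Areg* and *Btc*, was listed at 0 in KPR- and had 0.117 FPKM, about 8 fragments, in KPRrestored. On both flanks of the ligand group, the nearest gene with a deposited value (*Mthfd2l* and *Parm1*) had a lower value in KPRrestored, by less than 0.5. *Cxcl1* and *Cxcl2*, which lie beyond *Mthfd2l*, were higher by more than 0.5.

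**Figure D4:**
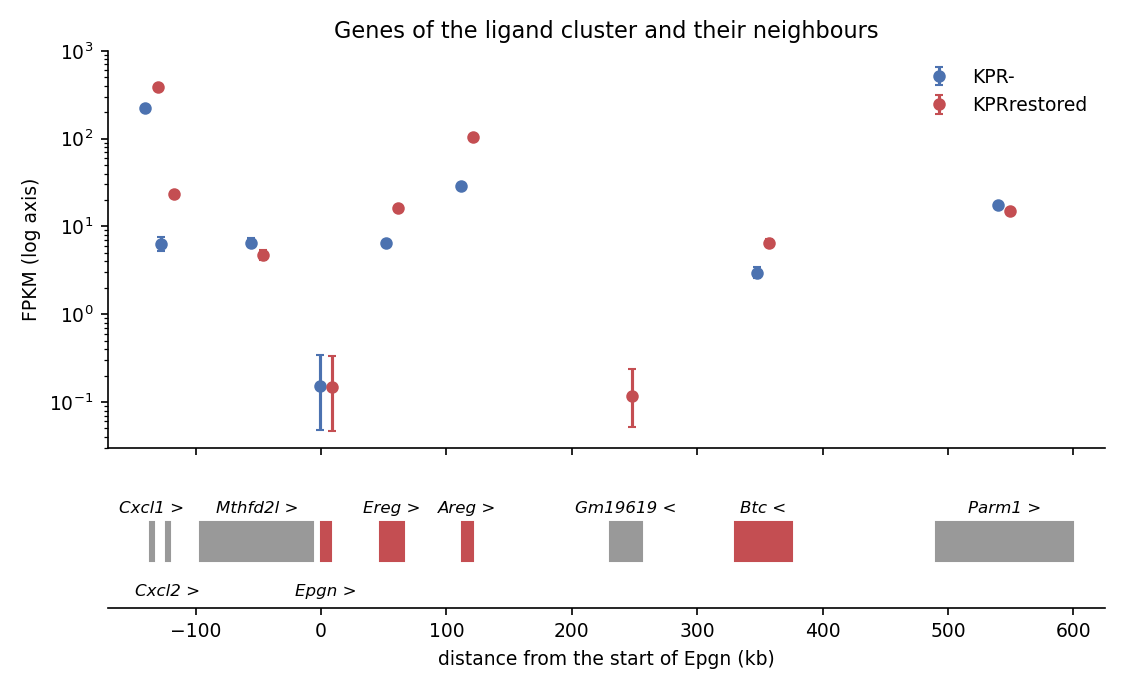
FPKM (log axis) of the 4 ligand genes on chromosome 5 and the 5 genes beside them, in KPR- and KPRrestored, placed by distance from the start of Epgn in kb, with 95% Poisson intervals as bars and, below, ligand genes in red, other genes in grey and > or < for the strand. Ereg, Areg and Btc, as well as Cxcl1 and Cxcl2, are higher in KPRrestored, Mthfd2l and Parm1 are not, and Gm19619 has no point in KPR- because it is listed at 0.

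The bases before the start sites of these genes were searched for 3 short motifs, with RefSeq promoter windows on GRCm38.p6 that run from 250 bases before to 50 bases after each start. Such windows matched 7 of the 10 genes, with 8 windows in all since *Errfi1* has 2, and windows of *Ereg*, *Hbegf* and *Erbb3* were not used here. The cyclic AMP response element (CRE, TGACGTCA, its own reverse complement) was in 2 of the 8 windows and in 1.79% of all 32851 windows. It begins 61 bases before the start of *Areg* and 51 bases before the downstream start of *Errfi1*. Both genes are among the 4 that were higher by 0.5 or more, and *Btc*, also among the 4, has none of the motifs in its window. The RUNX motif (TGTGGT or TGCGGT, both strands) was found in 1 window, that of the upstream start of *Errfi1*, where it begins at base 28 after the start. It is in 22.4% of all windows. The AP-1 motif (TGANTCA, both strands) was in 0 of the 8 windows and in 7.81% of all. A match is a match of letters only, and its absence says nothing of sites outside these windows.

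The 250 bases before the start are shown for *Areg* and for the downstream start of *Errfi1*, which hold the CRE, and for *Btc*, which was higher without it. They are written 5′ to 3′ on the strand of the gene, with the CRE in capitals. They lie at chr5:91139349-91139598 (plus strand), chr4:150854820-150855069 (plus strand) and chr5:91402995-91403244 (minus strand).
Areg: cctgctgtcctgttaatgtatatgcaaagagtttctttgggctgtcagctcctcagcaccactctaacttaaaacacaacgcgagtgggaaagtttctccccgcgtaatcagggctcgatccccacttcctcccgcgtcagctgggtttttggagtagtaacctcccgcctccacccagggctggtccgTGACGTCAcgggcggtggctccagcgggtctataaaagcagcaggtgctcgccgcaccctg
Errfi1: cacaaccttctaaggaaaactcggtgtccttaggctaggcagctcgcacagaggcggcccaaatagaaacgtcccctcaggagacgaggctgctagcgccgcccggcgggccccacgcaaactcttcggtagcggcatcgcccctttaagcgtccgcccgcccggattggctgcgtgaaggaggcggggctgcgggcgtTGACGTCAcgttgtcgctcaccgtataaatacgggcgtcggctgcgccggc
Btc: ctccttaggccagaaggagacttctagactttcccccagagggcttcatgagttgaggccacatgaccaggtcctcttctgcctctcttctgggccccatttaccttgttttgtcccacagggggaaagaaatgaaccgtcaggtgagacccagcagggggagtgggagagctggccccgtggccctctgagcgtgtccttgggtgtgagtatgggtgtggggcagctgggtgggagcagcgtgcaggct

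Next, the rest of the pathway was followed in 5 gene lists. For comparison, 13.8% of all genes and 12.1% of the expressed genes were higher by 0.5 or more. The shares lower by as much were 12.9% and 9.29%. The first list held the 5 ligands and the receptor that complete the family, of which 1 was higher and 2 were lower by 0.5 or more. *Nrg1*, which encodes neuregulin 1, a ligand of Erbb3 and Erbb4, was at 9.14 FPKM in KPR- and 6.29 FPKM in KPRrestored, a log2 difference of -0.54 (counting interval -0.68 to -0.40). It was the only one of these 6 genes whose mean FPKM reached 1. *Nrg2* was at 0.959 and 0.559 FPKM, a log2 difference of -0.77 from about 60 and 36 fragments. *Nrg4* was at 0.558 and 0.827 FPKM, a log2 difference of 0.56 from about 21 and 32 fragments, with a counting interval of -0.26 to 1.44. *Egf* itself had 0.121 and 0.146 FPKM, about 12 and 15 fragments. *Nrg3* and *Erbb4* were listed at 0 in both libraries, where 3 fragments would be 0.0361 and 0.0116 FPKM in KPR-. Of the ligands of Egfr higher in KPRrestored, *Ereg* and *Btc* also bind Erbb4, whose transcript was thus not detected.

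The second list held 12 genes of ligand shedding, of which 1 was higher and 1 was lower by 0.5 or more. *Frmd8*, which stabilizes the iRhom partners of the protease Adam17, was at 36.4 FPKM in KPR- and 55.2 FPKM in KPRrestored, a log2 difference of 0.60. *Rhbdf2*, an iRhom gene, had a difference of 0.49. *Adam12* was at 7.56 FPKM in KPR- and 3.39 FPKM in KPRrestored, a log2 difference of -1.16, and *Adam10*, the main protease for betacellulin, had a difference of -0.38. *Adam17*, the main protease for amphiregulin, lies outside the naming rule and was looked up after its values were seen. It was at 28.0 FPKM in KPR- and 21.9 FPKM in KPRrestored, a log2 difference of -0.35 that is within the threshold. The median of the 12 genes was -0.05.

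Among the 14 genes of receptor adaptors and signal relay, 2 were higher and 0 were lower by 0.5 or more, with a median of 0.01. *Gab2*, a docking protein for PI3K and Shp2, was at 2.59 and 5.33 FPKM, a log2 difference of 1.04. *Nck1*, an adaptor to the actin cytoskeleton, was at 11.2 and 17.5 FPKM, a difference of 0.64. *Pik3r1* and *Ptpn11* had differences of -0.39 and -0.25. Among the 16 genes of receptor degradation and damping, 2 were higher and 0 were lower, with a median of 0.15. *Hgs*, which sorts internalized receptors for degradation, was at 38.7 and 59.4 FPKM, a difference of 0.62, and *Lrig3*, the other gene past the threshold and named after its value was seen, was at 1.15 and 1.76 FPKM. *Rnf41*, a ubiquitin ligase for Erbb3, had a difference of 0.45. *Cbl*, the ubiquitin ligase for Egfr, and *Socs5* had differences of -0.35 and -0.33.

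The last list held 17 genes that respond to ERK signalling, of which 10 were higher and 1 was lower by 0.5 or more, with a median of 0.70. *Dusp4*, an ERK phosphatase, was at 27.2 FPKM in KPR- and 65.9 FPKM in KPRrestored, a log2 difference of 1.27. *Ier3* was at 296 and 587 FPKM, a difference of 0.98. *Fos* and *Egr1* lie outside the naming rule and were looked up after their values were seen. Their differences were larger, at lower levels. *Fos* was at 0.654 and 1.98 FPKM, a difference of 1.59, and *Egr1* at 0.83 and 2.28 FPKM, a difference of 1.45. *Ccnd1*, which encodes cyclin D1, was lower, at 331 FPKM in KPR- and 203 FPKM in KPRrestored, a log2 difference of -0.71. Another 6 genes lay within 0.5, from *Spred1* at -0.11 to *Etv5* at 0.41. Between them were *Spry2* (-0.08), *Etv4* (-0.03), *Spred2* (0.02) and *Spry1* (0.24). Of these 6, only *Spred1* falls under the naming rule. The median of all expressed genes was 0.01. All 5 lists were written with earlier results of these libraries known, and nothing is read from how their counts or medians differ.

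**Figure D5:**
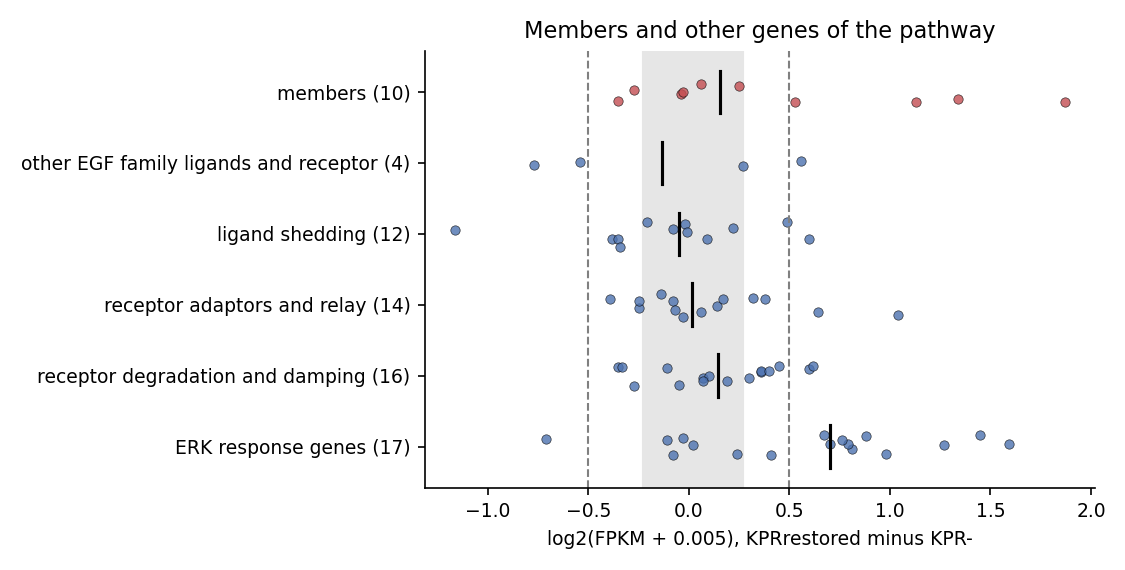
Log2 difference (KPRrestored minus KPR-) of the 10 genes (red) and of the genes of 5 pathway lists (blue), 1 point per gene, with the number of points in parentheses, the median as a black bar, the quartile range of the expressed genes as a grey band and dashed lines at 0.5 either way; Nrg3 and Erbb4, at 0 in both, are left out. The ERK response genes are centered at 0.70, the shedding and relay genes near 0.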

How the data were processed

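Poly(A) RNA of 1 KPR- library and 1 KPRrestored library was sequenced as paired-end reads. The authors removed adapters and low-quality reads using FASTX_Trimmer and BBMap, mapped the reads using TopHat (mm10, per the submitters' processing notes) and deposited the FPKM that Cufflinks estimated, which scales fragments by transcript length and by depth. The annotation and versions are not given in the sources used here. The paper also names a geometric normalization using EdgeR, and whether the deposited values carry it is not settled here. If they do, the fitted depths are scale factors of the FPKM and may differ from the number of sequenced fragments.

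Differences were computed as log2(FPKM + 0.005), KPRrestored minus KPR-, with a threshold of 0.5. This scale shrinks changes of genes near the pseudocount, but a few fragments can still pass the threshold. *Ptprc*, at 0 fragments in KPR- and about 1 in KPRrestored, had a log2 difference of 1.48. A depth and a mean fragment length of 214 bases were fitted to the low FPKM values of genes with 1 GENCODE M21 transcript of 400 to 6000 bases. Of the values worth 0.5 to 5.5 fragments, 78.8% in KPR- and 80.4% in KPRrestored lay no more than 0.1 from a whole number (20% by chance). Fragments per gene were estimated over the longest RefSeq-matched transcript, and intervals (Clopper-Pearson for differences, Poisson for levels, 95%) cover counting error only. With 1 library per group no p-value was computed. The fit and the intervals were tested on simulated libraries only, with Poisson fragments and 1 transcript per gene. Such libraries hold no spread between cultures and no mix of transcripts, so the test says nothing of either.

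The genes, lists and motifs were chosen with earlier results of these data known. Named genes were the 10 genes, all genes of the list that completes the family, and, in each other pathway list, the 2 genes furthest up and the 2 furthest down on log2(FPKM + 1). Others were named after their values were seen. Protein sequences were not used here. Alternatives were other pseudocounts, filters, thresholds, scalings and transcript lengths. Computations ran in Python 3.11.15 with scipy 1.17.1, pandas 2.3.3 and numpy 2.4.6, and plots were drawn in matplotlib 3.10.9.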

Additional observations from a re-analysis of the deposited data

How the results depend on the processing

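No paired analysis was possible because each group is 1 library. The count of 4 higher and 0 lower genes among the 10 was kept with a pseudocount of 0.1 or 1, a mean FPKM of at least 1, scaling to the same total and centring on the median expressed gene. It was 3 and 0 with a mean FPKM of at least 5, which leaves out *Btc*, with a threshold of 1 and with scaling to the same upper quartile, which both leave out *Errfi1*. All 50 recomputed differences of the 10 genes lay within their counting intervals. The scalings moved the median expressed gene by at most 0.03 on the log2 scale.

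Counts over all genes, 3193 higher and 3002 lower, were 1141 and 836 with a pseudocount of 1, 1358 and 1043 with a mean FPKM of at least 1, 872 and 641 with a mean FPKM of at least 5, and 1625 and 1527 with a threshold of 1. The pseudocount shrinks differences of low genes and the filters leave such genes out, while the threshold of 1 drops smaller differences at any level. In the list that completes the family, the 1 higher gene became 0 under both pseudocounts, both filters and the threshold of 1, and the 2 lower genes became 0 with a pseudocount of 1 or a threshold of 1 and 1 with either filter. With a threshold of 1, the higher genes numbered 0 in the shedding list, 1 in the relay list, 0 in the damping list and 3 in the ERK list, and the lower ERK gene dropped to 0. The 2 higher relay genes became 1 with a mean FPKM of at least 5, as did the 2 higher damping genes, which also became 1 with a pseudocount of 1. Over the shorter transcript, the estimated fragments of *Egfr* in KPR- were 1351 in place of 4945. Low levels limit what can be said of *Epgn*, *Egf*, *Nrg2* and *Nrg4*.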
